A study of Mus musculus with 8 samples.

Results

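The genes described here are those of respiratory complex I whose symbols begin with Nduf, followed in mouse gastrocnemius muscle with and without dipyridamole during arthritis. Every symbol with that start in the 8 count tables was taken, which gave 47 of 21833 symbols. They comprised 7 core subunits, 29 accessory subunits, 8 assembly factors (symbols starting Ndufaf) and 3 genes set apart. The 3 set apart were Ndufa4, which later structures place in complex IV, its paralog Ndufa4l2, and Ndufb1-ps, a symbol that names a pseudogene although RefSeq calls the same gene Ndufb1.

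Muscle RNA was sequenced from 8 male C57BL/6J mice aged 12 weeks. All 8 received pooled serum of arthritic K/BxN mice, 100 µL into the peritoneum on days 0 and 2, and gastrocnemius was taken on day 16. RA+Dipy mice (n = 4) were also given dipyridamole, a blocker of nucleoside uptake and of phosphodiesterases, at 25 mg/kg each day from day 0, and RA mice (n = 4) were not. The comparison asks how complex I transcripts in arthritic muscle differed when the drug was given. Serum transfer makes the arthritis a passive one in a C57BL/6J host, although the genotype label of all 8 samples reads K/BxN. The treatment label names dipyridamole for RA samples too, so groups were taken from the sample titles. No source used here names a vehicle, and muscle of mice without arthritis was not analysed here.

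Complex I, or NADH:ubiquinone oxidoreductase, is the entry point for electrons from NADH into the mitochondrial respiratory chain. Its matrix arm carries the flavin and the iron-sulfur clusters that pass electrons to ubiquinone, and its membrane arm pumps protons. The core subunits are shared with bacteria. Those of the matrix arm are encoded in the nucleus and those of the membrane arm in mitochondrial DNA. Accessory subunits surround and stabilise the core, and assembly factors act during building and are absent from the finished enzyme. In limb muscle the complex is most abundant in oxidative fibres, whereas gastrocnemius of the mouse is made mostly of fast fibres.

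Libraries held 16.4 to 50.6 M (mega) counts over protein-coding genes. Levels are given as CPM (counts divided by library size in mega counts, after TMM scaling). A count of 0 (upper limit of 3 counts, counting error only) would allow 0.0592 to 0.183 CPM before TMM scaling. As a check of the tissue label, the fast-fibre myosin Myh4 made up 2.11% to 6.06% of counts in the 8 libraries, and the actin Acta1 1.76% to 4.40%. All 47 Nduf genes passed the low-count filter, among 12755 genes tested. RA+Dipy replicate 1 and RA replicate 4 stood apart from the other 6 libraries, for Nduf genes as for genes at large. Fold changes between the groups are therefore given for all 8 libraries and for the 6 that remain without this pair. In bulk muscle, fewer cells of a type and less RNA per cell cannot be told apart.

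No Nduf gene differed between RA+Dipy and RA muscle past an adjusted p of 0.05 (edgeR quasi-likelihood test, Benjamini-Hochberg over all genes tested). Among all genes the same rule called 0% higher and 0% lower. The smallest adjusted p of a member was 0.882. At an unadjusted p under 0.05 the rule called 0 of 47 members, against 1.68% of all genes higher and 2.15% lower. In no member did the 4 RA+Dipy libraries lie entirely on 1 side of the 4 RA libraries, which happened for 1.46% of all genes upward and 1.26% downward. Fitted log2 fold changes ran from -1.05 to 0.66 over the members, with 22 above 0 and 25 below, beside 52.2% of all genes above and 47.8% below. Their median was -0.06, beside 0.02 for all genes tested.

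**Figure D1:**
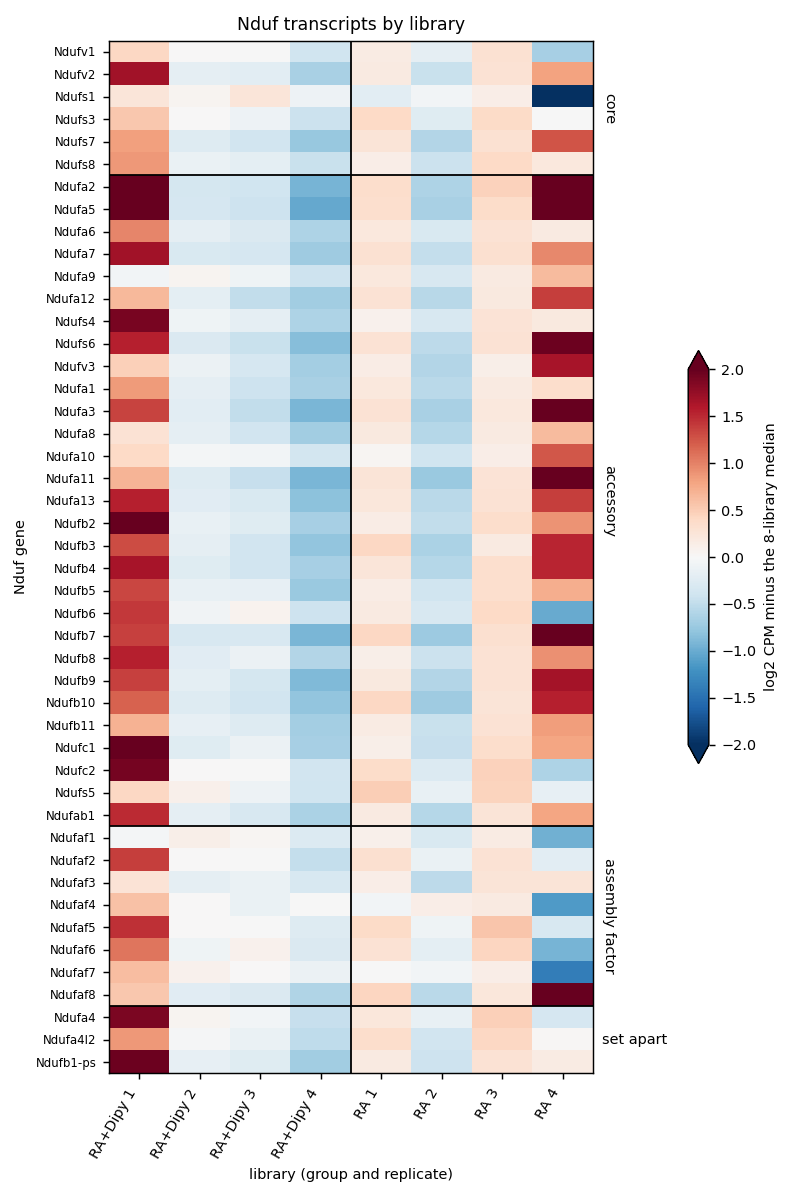
Level of 46 of the 47 Nduf genes (rows) in each library (columns, RA+Dipy left, RA right), as the log2 deviation of its TMM-scaled CPM from that gene's median over the 8 libraries. RA+Dipy replicate 1 lies above the median for 45 of 47 members, beside 6130 of 12755 genes tested. RA replicate 4 is raised for many accessory subunits and lowered for Ndufs1 and most assembly factors. RA replicates 1 and 3 sit above RA+Dipy replicates 2 to 4 and RA replicate 2 for most members.

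Without RA+Dipy replicate 1 and RA replicate 4, 46 of 47 Nduf genes had a lower fitted level in RA+Dipy muscle than in RA muscle, beside 48.7% of all genes lower and 51.3% higher. The median log2 fold change of the members was then -0.37, and that of all genes 0.01. Still 0 members passed an adjusted p of 0.05 (background 0% in each direction), with a smallest adjusted p of 0.418. At an unadjusted p under 0.05, 5 members were lower and 0 higher, beside 5.45% of all genes lower and 5.96% higher. In 0 of 47 members did the 3 RA+Dipy libraries lie entirely below or above the 3 RA libraries, against 6.21% of all genes below and 7.92% above. Nearly all members thus shared a sign, each by a difference that did not pass the adjusted threshold. A limma-voom fit that kept all 8 libraries but gave them weights put 46 of 47 members below 0. It called 0 members at an adjusted p under 0.05, where 0.87% of all genes were called higher and 0.172% lower. Before adjustment, 26 members had a p under 0.05 and were lower and 0 were higher, beside 14.5% of all genes lower and 14% higher.

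Summed over the 47 genes, Nduf transcripts stood at 24678, 9362, 8899 and 6758 CPM in RA+Dipy replicates 1 to 4, and at 11933, 7690, 12503 and 24167 CPM in RA replicates 1 to 4. The highest value of each group belonged to the library that stood apart, and the groups overlapped widely. The sum averaged 12424 ± 8248 CPM in RA+Dipy and 14073 ± 7063 CPM in RA (SD, n = 4 each), a log2 ratio of -0.18. Among the 6 libraries it averaged 8340 ± 1389 CPM in RA+Dipy and 10709 ± 2629 CPM in RA (SD, n = 3 each), a log2 ratio of -0.36. As a share of raw counts the members took 2.28%, 1.00%, 0.959% and 0.792% in RA+Dipy replicates 1 to 4, and 1.20%, 0.871%, 1.25% and 1.71% in RA replicates 1 to 4.

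The 7 nuclear core subunits divide into those of the NADH-oxidising module (Ndufv1, Ndufv2 and Ndufs1) and those that lead electrons on to ubiquinone (Ndufs3, Ndufs7 and Ndufs8 among them). Over 8 libraries, 4 had a fitted value above 0 and 3 below, with a median log2 fold change of 0.0039 and a range of -0.47 to 0.47. Without the pair of libraries 6 were below 0 and 1 above, with a median of -0.32. None had an unadjusted p under 0.05 in either fit.

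Ndufv1, which holds the flavin that accepts electrons from NADH, stood at 574, 433, 426 and 326 CPM in RA+Dipy replicates 1 to 4, against 479, 379, 528 and 270 CPM in RA replicates 1 to 4. The fitted log2 fold change was 0.086 (SE 0.30, edgeR adjusted p = 0.952), and -0.22 in the 6 libraries (edgeR adjusted p = 0.602). The groups overlapped, and the lowest library of all was RA replicate 4. Ndufv2, its iron-sulfur partner, stood at 1844, 507, 498 and 366 CPM in RA+Dipy against 655, 425, 706 and 1009 CPM in RA. Here the same RA library was the second highest, and RA+Dipy replicate 1 lay far above the rest. The log2 fold change of Ndufv2 was 0.20 (SE 0.52), and -0.37 without the pair.

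Ndufs1, the largest core subunit of the matrix arm, differed from all other members in the sign of its fitted value over the 6 libraries. It stood at 405, 356, 403 and 318 CPM in RA+Dipy replicates 1 to 4, against 294, 328, 373 and 73.6 CPM in RA replicates 1 to 4. RA replicate 4 held 0.215 times the median of the 6 other libraries, the lowest such value of any member. The remaining 7 libraries of Ndufs1 lay between 294 and 405 CPM. Ndufaf1, Ndufaf4 and Ndufaf7, among others, were also low in RA replicate 4, at 0.487, 0.455 and 0.382 times the same median of each gene. Ndufs1 had the largest positive fold change of the core, 0.47 (SE 0.43, edgeR adjusted p = 0.882), and was the 1 member above 0 in the 6 libraries, at 0.12 (SE 0.16, edgeR adjusted p = 0.744). The gene lies at chr1:63143596-63176833 (GRCm38, minus strand) and its exons overlap those of Ino80dos and Eef1b2 on the opposite strand, by up to 489 bases. Its group means without the pair were 359 ± 42.4 CPM in RA+Dipy and 332 ± 39.2 CPM in RA (SD, n = 3 each). In the same 6 libraries Ndufaf7 at -0.019 (SE 0.13) and Ndufaf1 at -0.028 (SE 0.16), among others, lay within their SE of 0 too.

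Ndufs3, a matrix-arm subunit with no cluster of its own, stood at 306, 211, 197 and 156 CPM in RA+Dipy against 278, 178, 274 and 208 CPM in RA, with a log2 fold change of -0.11 (SE 0.29), or -0.36 (SE 0.20) without the pair. The groups overlapped. Ndufs7, which carries the last iron-sulfur cluster before ubiquinone, stood at 747, 351, 324 and 248 CPM in RA+Dipy against 507, 281, 520 and 1010 CPM in RA. Its log2 fold change of -0.47 (SE 0.46) was the most negative of the core, and it was -0.49 (SE 0.24, edgeR adjusted p = 0.444) in the 6 libraries. It was -0.91 without RA+Dipy replicate 1 alone and -0.038 without RA replicate 4 alone. Ndufs8, with a further pair of iron-sulfur clusters, stood at 316, 158, 152 and 127 CPM in RA+Dipy against 191, 130, 229 and 201 CPM in RA, and its log2 fold change was 0.0039 (SE 0.34), or -0.32 without the pair.

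**Figure D2:**
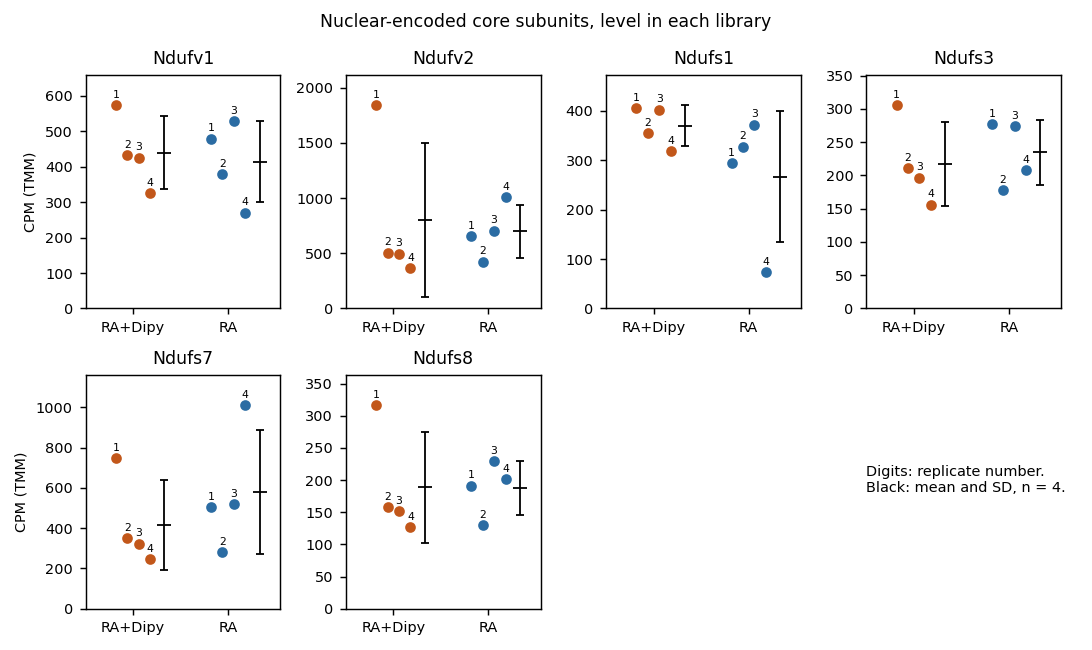
TMM-scaled CPM of 6 nuclear core subunits, each point a library (RA+Dipy left of RA within each gene), with the mean and SD of each group (n = 4). Digits give the replicate number. RA replicate 4 is the lowest point for Ndufs1, at 73.6 CPM, and the highest for Ndufs7.

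The 29 accessory subunits had 9 fitted values above 0 and 20 below over 8 libraries, with a median log2 fold change of -0.29. In the 6 libraries 29 of 29 were below 0, with a median of -0.40. The 9 accessory subunits of the matrix arm had a median of -0.48 over 8 libraries and -0.46 over 6, and the 19 of the membrane arm had -0.16 and -0.38. The difference between the arms was not tested. With RA+Dipy replicate 1 alone left out the accessory median was -0.64, and with RA replicate 4 alone left out it was 0.26.

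The 5 members with an unadjusted p under 0.05 in the 6 libraries were all accessory subunits of the matrix arm, and all were lower in RA+Dipy. They were named after their values were seen. Ndufs6 carries the zinc site of the matrix arm and stood at 196, 174 and 132 CPM in RA+Dipy replicates 2 to 4, against 290, 166 and 293 CPM in RA replicates 1 to 3. On the log2 scale its fold change was -0.57 (SE 0.23, edgeR unadjusted p = 0.035 and adjusted p = 0.419). RA replicates 1 and 3 were the high libraries, and RA replicate 2 fell within the RA+Dipy values. Ndufa2, a small subunit with a thioredoxin-like fold, stood at 177, 171 and 118 CPM in RA+Dipy against 288, 147 and 311 CPM in RA, with a log2 fold change of -0.67 (SE 0.27). Ndufa5, Ndufa6 and Ndufa7 had log2 fold changes of -0.64, -0.43 and -0.52 in the same libraries. Ndufa6 is a LYR-motif protein that docks the acyl carrier protein. With all 8 libraries the edgeR unadjusted p of these 5 genes ran from 0.477 for Ndufs6 to 0.986 for Ndufa6.

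Among accessory subunits the 3 of smallest p in each direction over 8 libraries had extreme values in the libraries that stood apart. Ndufc2, a membrane-arm subunit, stood at 578, 154, 151 and 117 CPM in RA+Dipy against 197, 126, 210 and 99.9 CPM in RA. Its log2 fold change was 0.66 (SE 0.52, edgeR adjusted p = 0.882), and -0.32 without the pair. RA+Dipy replicate 1 was the single high library. Ndufb6, also of the membrane arm, stood at 171, 61.2, 66.9 and 47.9 CPM in RA+Dipy against 72.3, 51.4, 84.4 and 31.9 CPM in RA, with a log2 fold change of 0.53 (SE 0.45), or -0.23 without the pair. Ndufs4, a matrix-arm subunit whose loss in mice causes a fatal encephalopathy, stood at 912, 230, 216 and 160 CPM in RA+Dipy against 260, 195, 295 and 281 CPM in RA. The fitted log2 fold change was 0.56 (SE 0.53), or -0.30 without the pair, so the sign of all 3 turned.

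In the other direction RA replicate 4 was the high library. Ndufa11, a membrane-arm subunit at the contact with the other respiratory complexes, stood at 256, 134, 116 and 85.0 CPM in RA+Dipy against 191, 95.7, 193 and 659 CPM in RA. On the log2 scale its fold change was -0.95 (SE 0.58, edgeR adjusted p = 0.882), and -0.51 (SE 0.26) without the pair. Ndufv3, of the NADH-oxidising module, stood at 230, 152, 131 and 103 CPM in RA+Dipy against 183, 110, 180 and 521 CPM in RA, with a log2 fold change of -0.69 (SE 0.48), or -0.28 without the pair. Ndufa3, a small membrane-arm subunit, stood at 689, 232, 192 and 143 CPM in RA+Dipy against 330, 171, 313 and 1779 CPM in RA. Its log2 fold change was -1.05 (SE 0.76), or -0.52 (SE 0.26) without the pair. The sign of these 3 was negative in both fits, and in neither did the groups part. With RA replicate 4 alone left out the log2 fold changes were -0.091 for Ndufa11, -0.014 for Ndufv3 and 0.24 for Ndufa3. With RA+Dipy replicate 1 alone left out they were -1.35 for Ndufa11, -0.95 for Ndufv3 and -1.78 for Ndufa3.

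Ndufab1, the mitochondrial acyl carrier protein, is present in both arms and also serves fatty acid and lipoic acid synthesis. It stood at 264, 82.7, 74.9 and 60.5 CPM in RA+Dipy against 106, 63.2, 112 and 161 CPM in RA, with a log2 fold change of 0.12 (SE 0.49), or -0.36 (SE 0.21) without the pair. Over all 29 accessory subunits, named or not, log2 fold changes ran from -1.05 to 0.66 over 8 libraries, and from -0.67 to -0.07 over 6.

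**Figure D3:**
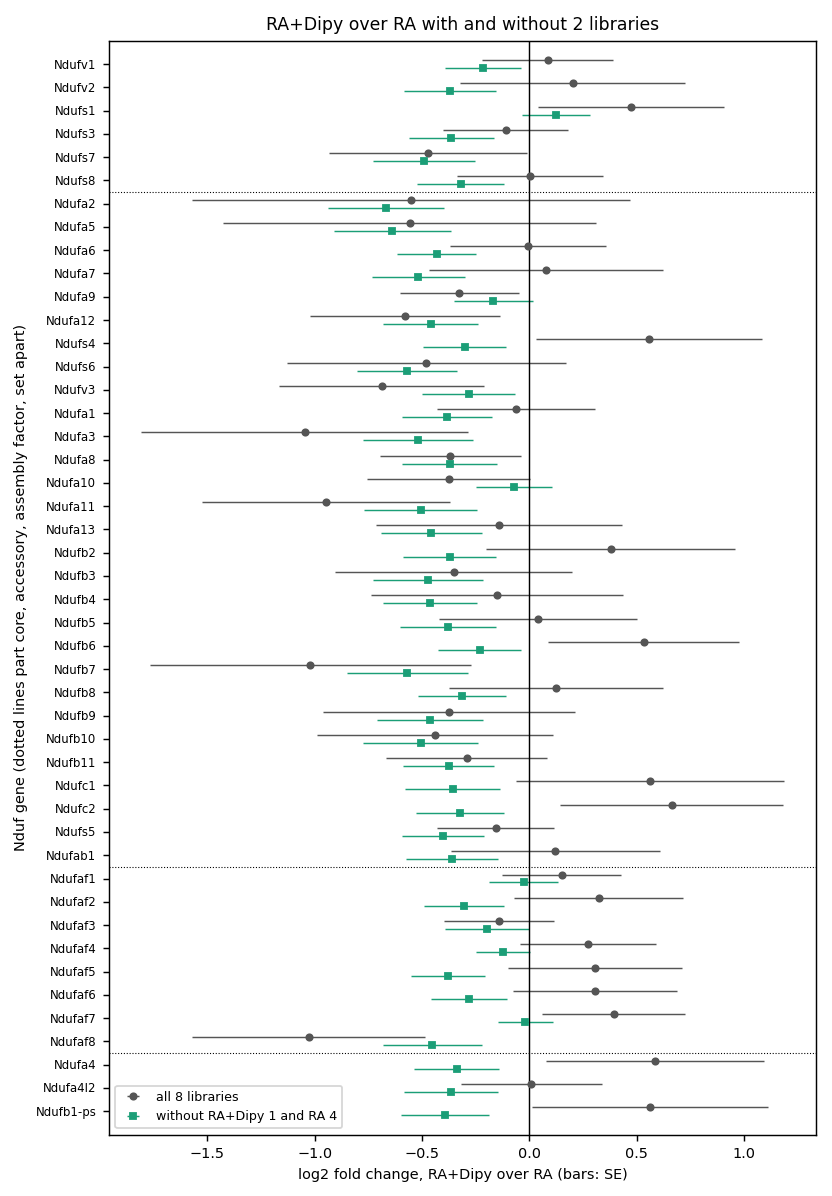
Log2 fold change (RA+Dipy over RA, edgeR) of 46 of the 47 Nduf genes with its standard error, over 8 libraries and over the 6 without RA+Dipy replicate 1 and RA replicate 4, grouped by class. With 6 libraries every gene drawn lies below 0 except Ndufs1.

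Of the 8 assembly factors, 6 had fitted values above 0 and 2 below over 8 libraries, with a median log2 fold change of 0.29. In the 6 libraries 8 of 8 were below 0, with a median of -0.24. Ndufaf7, known in human cells as an arginine methyltransferase that acts on the matrix arm, stood at 29.7, 20.7, 19.6 and 17.9 CPM in RA+Dipy against 19.3, 18.7, 21.3 and 7.43 CPM in RA. The fitted log2 fold change was 0.39 (SE 0.33), and -0.02 (SE 0.13) without the pair, and RA replicate 4 was by far the lowest library. Ndufaf4, which in human cells works with NDUFAF3 early in assembly, stood at 64.8, 43.6, 39.6 and 42.9 CPM in RA+Dipy against 41.7, 47.4, 49.1 and 19.7 CPM in RA. On the log2 scale its fold change was 0.27 (SE 0.32), or -0.12 (SE 0.12) without the pair.

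Ndufaf8, known in human cells as a partner of NDUFAF5, had the smallest p of all 47 members. It stood at 31.4, 18.5, 17.7 and 14.1 CPM in RA+Dipy against 29.1, 14.8, 25.2 and 97.7 CPM in RA, with a log2 fold change of -1.03 (SE 0.54, edgeR unadjusted p = 0.0868 and adjusted p = 0.882). RA replicate 4 exceeded every other library, and without the pair the log2 fold change was -0.45 (SE 0.23, edgeR adjusted p = 0.452). It was -0.16 without RA replicate 4 alone and -1.31 without RA+Dipy replicate 1 alone. Ndufaf3 stood at 22.9, 16.7, 17.2 and 15.2 CPM in RA+Dipy against 20.9, 13.2, 22.6 and 22.8 CPM in RA, with a log2 fold change of -0.14 (SE 0.25), or -0.20 (SE 0.19) without the pair. Its RA libraries were 3 close values and 1 low one, replicate 2. Ndufaf2, a paralog of the subunit Ndufa12 that sits on late assembly intermediates, stood at 24.9, 9.52, 9.50 and 6.79 CPM in RA+Dipy against 11.9, 8.65, 11.6 and 8.19 CPM in RA. Its log2 fold change was 0.32 (SE 0.39), or -0.31 without the pair.

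The 3 genes set apart all had positive fitted values over 8 libraries and negative ones over 6. Ndufa4 stood at 1767, 498, 465 and 348 CPM in RA+Dipy against 562, 435, 673 and 382 CPM in RA, with a log2 fold change of 0.59 (SE 0.51), or -0.34 (SE 0.20) without the pair. Ndufa4l2, known for its induction in low oxygen, stood at 24.7, 13.4, 12.4 and 9.55 CPM in RA+Dipy against 17.3, 10.4, 18.1 and 13.8 CPM in RA, with a log2 fold change of 0.0082 (SE 0.33), or -0.37 without the pair. Ndufa4 followed RA+Dipy replicate 1 strongly, at 3.67 times the median of the 6 libraries, and Ndufa4l2 less so, at 1.92 times.

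The libraries that stood apart differed in the members they moved. RA+Dipy replicate 1 lay more than 2-fold above the median of the 6 other libraries for 30 of 47 members, and its ratio ran from 0.932 for Ndufaf1 to 8.92 for Ndufa2. RA replicate 4 lay more than 2-fold above for 22 members, 19 of them accessory, and its ratio ran from 0.215 for Ndufs1 to 12.7 for Ndufa2. In 17 members both were more than 2-fold above. In 6 members RA+Dipy replicate 1 was more than 2-fold above while RA replicate 4 was below the median. Shares of all genes past 2-fold were not computed, so these counts have no background. Over all genes tested, log2 deviations from the 8-library median had an SD of 0.82 in RA+Dipy replicate 1 and 1.18 in RA replicate 4. RA+Dipy replicate 1 lay above that median for 6130 of 12755 genes and 45 of 47 members. RA replicate 4 did so for 6120 genes and 34 members. The median ratio of RA+Dipy replicate 1 was 3.13 for accessory subunits, 1.50 for core subunits and 1.63 for assembly factors. In RA replicate 4 it was 2.42, 1.30 and 0.662 for the same classes.

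As class medians of the log2 deviation from the 8-library median, the accessory subunits stood at 1.37, -0.18, -0.33 and -0.69 in RA+Dipy replicates 1 to 4, and at 0.22, -0.53, 0.28 and 0.96 in RA replicates 1 to 4. The core subunits stood at 0.54, -0.11, -0.18 and -0.45 in RA+Dipy, and at 0.16, -0.35, 0.30 and 0.21 in RA. The assembly factors stood at 0.60, 0.01, -0.01 and -0.28 in RA+Dipy, and at 0.21, -0.16, 0.24 and -0.62 in RA. Across the 6 other libraries the 3 classes kept 1 order, with RA replicates 1 and 3 high and RA+Dipy replicate 4 low, and the accessory subunits had the widest span.

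**Figure D4:**
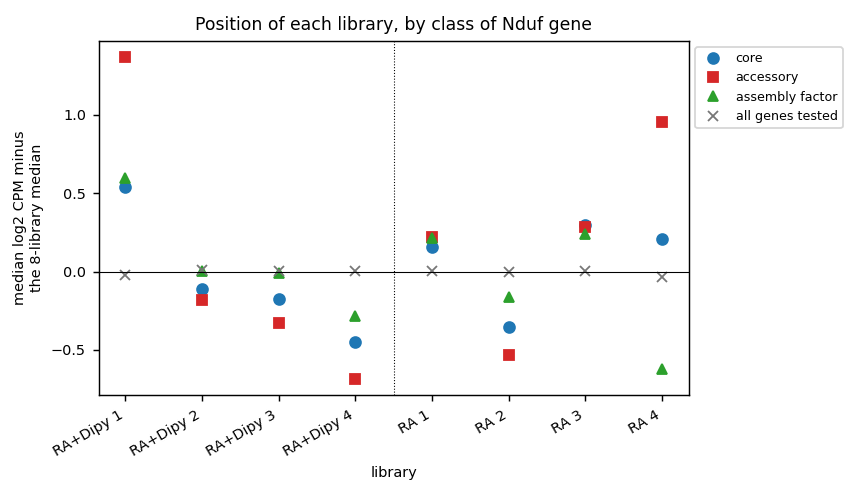
Median log2 deviation of each class of Nduf genes, and of all genes tested, from the 8-library median, by library (RA+Dipy left, RA right). Accessory subunits reach 1.37 in RA+Dipy replicate 1 and 0.96 in RA replicate 4, whereas assembly factors reach 0.60 and -0.62 in the same libraries.

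Within RA the 3 remaining libraries were not alike. RA replicates 1 and 3 both exceeded RA replicate 2 and RA+Dipy replicates 2 to 4 in 43 of 47 members, beside 20.8% of 12796 genes tested in the 6 libraries. This held for 29 of 29 accessory subunits, 6 of 7 core subunits, 5 of 8 assembly factors and 3 of 3 genes set apart. The 4 exceptions were Ndufs1, Ndufaf1, Ndufaf4 and Ndufaf7. RA replicate 2 lay inside the range of RA+Dipy replicates 2 to 4 for 43 members, below it for 3 and above it for 1. RA+Dipy replicate 4 was the lowest of the 6 for 42 members, and RA replicate 3 the highest for 33. Shares of all genes were not computed for these ranges and ranks. RA+Dipy replicate 4 lay above the 6-library median for 0 of 47 members, beside 6279 of 12755 genes tested. RA replicate 3 did so for 47 members, beside 6236 genes, and RA replicate 2 for 1 member, beside 6202 genes. RA replicate 2 thus stood with the RA+Dipy libraries rather than with the 2 other RA libraries for most members.

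The members also spread unequally over the 6 libraries. The coefficient of variation was 6.35% for Ndufaf7, 8.09% for Ndufaf4 and 11.4% for Ndufs1, the 3 lowest of the 47. It reached 38.9% for Ndufa2. Class medians were 26.1% for accessory subunits, 23.3% for core subunits and 19.7% for assembly factors.

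Nduf transcripts are short, and length moved with these differences between libraries. The exonic length of their coding transcripts had a median of 1064 bases over the 46 members with a length, against 3390 bases over all genes tested. Among all genes shorter than 1000 bases the median log2 fold change in the 6 libraries was -0.36, beside -0.46 for the 22 Nduf genes of that length. From 1000 to under 2000 bases it was -0.17 for all genes and -0.34 for 16 Nduf genes. From 2000 to under 3000 bases it was -0.04 for all genes and -0.07 for 5 Nduf genes, and from 3000 to under 5000 bases 0.05 and -0.36 for 3 Nduf genes, too few members to describe a trend. All genes of 5000 bases and over had a median of 0.12.

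The pattern of RA replicates 1 and 3 above the other 4 libraries followed length in the same way. It was present in 69.2% of all genes under 1000 bases, 45.3% from 1000 to under 2000, 22.5% from 2000 to under 3000, 12.2% from 3000 to under 5000 and 5.70% of longer ones. Among Nduf genes it was present in 22 of 22, 15 of 16, 3 of 5 and 2 of 3 in the first 4 of these classes. The 4 exceptions had 2819 bases (Ndufs1), 2707 (Ndufaf7), 3632 (Ndufaf4) and 1479 (Ndufaf1). Short genes at large thus shared much of the pattern, and the part of length in the Nduf result was not tested. Across the 46 members, Spearman's rho between length and deviation from the 8-library median was -0.29, 0.36, 0.35 and 0.44 in RA+Dipy replicates 1 to 4, and -0.69, 0.30, -0.36 and -0.28 in RA replicates 1 to 4. Signs were mixed within both groups. These are descriptions across genes of 1 library, which are not independent replicates. Over 12605 genes it was -0.20, 0.11, 0.22 and 0.41 in RA+Dipy replicates 1 to 4, and -0.33, 0.38, -0.44 and -0.11 in RA replicates 1 to 4.

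**Figure D5:**
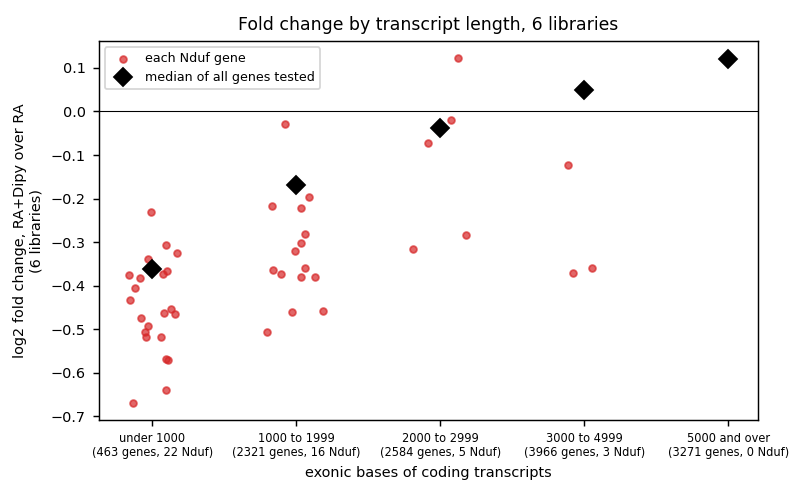
Log2 fold change (RA+Dipy over RA, 6 libraries) by exonic length of the coding transcripts in bases. All genes tested are drawn as their median and Nduf genes as separate points. The median of all genes goes from -0.36 under 1000 bases to 0.12 at 5000 bases and over. The points of the 22 shortest Nduf genes have a median of -0.46, which is not drawn.

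When each library was scaled to its own summed Nduf counts, the median of all genes moved to 0.28 on the log2 scale. On that scale the median log2 fold change was 0.14 for core subunits, -0.03 for accessory subunits and 0.29 for assembly factors, and 0 members were called. Relative to the shift of all genes, core and accessory subunits lay below and assembly factors beside it.

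Levels per length were compared as TPM computed from the counts and exon lengths. Averaged over 8 libraries, Ndufa2 stood highest at 2083 ± 2097 TPM, and Ndufa4 was also among the highest at 1103 ± 607 TPM (SD, n = 8 libraries). Ndufa2 reached 5284 TPM in RA+Dipy replicate 1 and 5627 TPM in RA replicate 4, and at most 1340 TPM in the other 6 libraries. Ndufa4 stood at 2489 TPM in RA+Dipy replicate 1 and at 401 TPM in RA replicate 4, with 802 to 1199 TPM in the others. Lowest were Ndufaf2 at 9.22 ± 3.42 TPM, Ndufaf7 at 14.1 ± 4.54 TPM and Ndufb2, a membrane-arm subunit, at 22.4 ± 13.6 TPM. By class the median TPM was 408 for core subunits, 326 for accessory subunits and 42.4 for assembly factors. These levels depend on which transcripts set a gene's length. With coding transcripts alone, a choice made after the values were seen, Ndufa4 came first at 1932 TPM and Ndufa2 next at 1657 TPM, and Ndufb7 moved to rank 7 from rank 29. By the same lengths, the median over the 6 other libraries was 1734 TPM for Ndufa4 but 678 TPM for Ndufa2. That of Ndufa2 lay below Ndufb10 at 1131 TPM and Ndufb9 at 926 TPM, among others. At the low end Ndufaf2 then averaged 32.2 TPM, at rank 41 of 46, and Ndufaf7 was lowest at 14.6 TPM with Ndufb2 next at 22.8 TPM.

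In counts, Ndufb2 stood at 160, 35.5, 33.5 and 24.9 CPM in RA+Dipy against 43.8, 28.0, 50.6 and 73.2 CPM in RA, with a log2 fold change of 0.38 (SE 0.58), or -0.37 without the pair. Ndufa2 over all 8 libraries stood at 1554, 177, 171 and 118 CPM in RA+Dipy against 288, 147, 311 and 2216 CPM in RA, with a log2 fold change of -0.55 (SE 1.02). In both genes the libraries that stood apart held the highest level of their group. Reads were counted without strand. In GENCODE vM21, exons of 20 members overlap those of another gene, in 18 cases on the opposite strand. Ndufaf2 shares 1955 of its 2978 exonic bases with B230220B15Rik and Ndufb5 shares 616 with Mrpl47. How reads over such stretches were assigned is not stated, so levels of these members are uncertain to that extent.

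Promoters are shown because most members took the same order over the 6 libraries. RefSeq windows on GRCm38.p6, from 250 bases before to 50 bases after the annotated start, matched 41 of 47 members in 43 windows. Members without an entry included Ndufs1, Ndufa2, Ndufb9, Ndufaf6 and Ndufa4l2. Both strands were searched for 4 motifs of factors known from work on mitochondrial genes. NRF1 (GCGCA, any base, then GCGC, nearly its own reverse complement, so that some matches count on both strands) was present in 9 of 41 members, 22.0%, beside 5.19% of 27025 genes. YY1 (AAGATGGC) was present in 8 of 41, 19.5%, beside 3.19% of genes. The ETS core bound by GABPA (CCGGAAG) was present in 6 of 41, 14.6%, beside 9.93%, and the ERR motif (TCAAGGTCA) in 0 of 41, beside 0.466%. Matches do not overlap in the windows printed here, and 21 members hold at least 1 of them. A match is a description of letters, not a binding site.

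The windows below are of 2 accessory subunits, Ndufs6 and Ndufb4, and 2 core subunits, Ndufs7 and Ndufs3, which between them hold each of the 3 motifs found. Each runs 5′ to 3′ along the gene's strand, with motif matches in capitals. The window of Ndufs6 (chr13:73328433-73328732, minus strand) holds NRF1 at -16 and YY1 at 34 from the start, which is position 1. That of Ndufb4 (chr16:37654319-37654618, minus strand) holds NRF1 at -191, -79 and -22. Ndufs7 (chr10:80249199-80249498, plus strand) holds YY1 at 25, and Ndufs3 (chr2:90904672-90904971, minus strand) holds the ETS core at -27 and 2.
Ndufs6: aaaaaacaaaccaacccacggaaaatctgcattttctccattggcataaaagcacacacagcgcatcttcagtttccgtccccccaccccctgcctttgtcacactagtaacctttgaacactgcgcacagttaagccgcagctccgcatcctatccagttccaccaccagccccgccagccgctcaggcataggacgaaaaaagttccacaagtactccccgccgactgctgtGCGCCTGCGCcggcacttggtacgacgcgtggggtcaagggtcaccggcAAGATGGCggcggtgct
Ndufb4: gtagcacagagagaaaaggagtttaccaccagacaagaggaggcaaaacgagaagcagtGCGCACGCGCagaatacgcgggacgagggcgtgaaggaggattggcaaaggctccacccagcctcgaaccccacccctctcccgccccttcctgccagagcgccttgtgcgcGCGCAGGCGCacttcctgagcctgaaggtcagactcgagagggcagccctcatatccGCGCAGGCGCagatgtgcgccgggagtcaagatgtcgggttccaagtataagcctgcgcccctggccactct
Ndufs7: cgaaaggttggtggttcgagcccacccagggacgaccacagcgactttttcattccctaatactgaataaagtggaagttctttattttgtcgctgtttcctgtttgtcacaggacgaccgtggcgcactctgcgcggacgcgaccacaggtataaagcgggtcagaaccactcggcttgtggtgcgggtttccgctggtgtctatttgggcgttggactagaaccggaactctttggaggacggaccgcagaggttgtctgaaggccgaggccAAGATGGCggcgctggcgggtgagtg
Ndufs3: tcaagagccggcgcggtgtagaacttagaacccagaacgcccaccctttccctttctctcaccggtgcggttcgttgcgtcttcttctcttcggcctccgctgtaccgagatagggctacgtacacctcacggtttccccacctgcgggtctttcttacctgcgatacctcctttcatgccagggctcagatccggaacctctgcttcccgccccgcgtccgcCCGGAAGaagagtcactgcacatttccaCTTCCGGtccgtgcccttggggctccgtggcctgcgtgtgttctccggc

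The YY1 matches of the 8 members lay between 11 and 39 bases after the start, all on the gene's strand, in Ndufs7, Ndufa9, Ndufs4, Ndufs6, Ndufa3, Ndufb8, Ndufc1 and Ndufaf8. In Ndufs3, Ndufb4, Ndufs6 and Ndufs7, whose windows are printed, RA replicates 1 and 3 lay above the other 4 of the 6 libraries. The same held in 43 of all 47 members. Of the 4 exceptions, Ndufaf4 holds an NRF1 match at -113 and Ndufaf1 an ETS match at -18. Ndufaf7 holds no match, and Ndufs1 had no window. A relation of the motifs to this order of libraries was not tested.

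The mitochondrially encoded core subunits form the membrane arm. Of 7 such genes, 5 passed the filter, and 0 had an unadjusted p under 0.05. Over 8 libraries 1 fitted value was above 0 and 4 were below (median -0.35 on the log2 scale), and over 6 libraries 5 of 5 were above 0 (median 0.20). mt-Nd1 stood at 12799, 14085, 12176 and 11691 CPM in RA+Dipy against 9955, 12172, 13297 and 31783 CPM in RA, with a log2 fold change of -0.41 (SE 0.40), or 0.11 without the pair. RA replicate 4 was the high library, and RA replicate 1 the lowest. mt-Nd4 had a log2 fold change of -0.40 (SE 0.40), or 0.20 without the pair, and mt-Nd6 one of 0.44 (SE 0.67), or 0.04. Positive values of the mitochondrial genes and negative values of the nuclear ones in the same 6 libraries were not tested against each other.

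Assembly factors without the Nduf prefix had 7 values above 0 and 4 below among 11 tested of 12 listed, with a median log2 fold change of 0.07, or -0.13 over 6 libraries. Nubpl, which delivers iron-sulfur clusters, had 0.55 (SE 0.45), or -0.086 (SE 0.15) without the pair. Its level was 13.98 CPM in RA+Dipy replicate 1 and 1.60 CPM in RA replicate 4, and 6.27 to 7.46 CPM in the others. Tmem126b, part of an early membrane-arm assembly complex, had 0.23 (SE 0.24), or 0.048 without the pair. Dmac2 had -0.39 (SE 0.26), or -0.13 without the pair, and Timmdc1 -0.31 (SE 0.21), or -0.25. Regulators and content markers had 5 values above 0 and 5 below among 10, with a median of -0.01, or -0.05 over 6 libraries. Cs, citrate synthase, a common measure of mitochondrial content, stood at 437, 940, 951 and 839 CPM in RA+Dipy against 841, 771, 843 and 693 CPM in RA, a log2 fold change of 0.0088 (SE 0.31), or 0.16 without the pair. Its low library was RA+Dipy replicate 1, the one in which most Nduf genes were high. Nrf1 had -0.38 (SE 0.21), or -0.24 without the pair. Ppargc1b, a coactivator of oxidative genes, had -1.12 (SE 0.94), or 0.21 without the pair. Tfam, which packages mitochondrial DNA, had 0.51 (SE 0.39), or -0.044 (SE 0.12) without the pair. RA+Dipy replicate 1 held 79.6 CPM of it and RA replicate 4 held 13.6 CPM, with 39.8 to 45.8 CPM in the others. Gabpa had 0.39 (SE 0.41), or 0.31 without the pair. None of these lists held a gene with an unadjusted p under 0.05.

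Markers of other cells and fibre types were summed per library. Slow and oxidative fibre genes summed to 1308 to 2514 CPM in RA+Dipy and to 1332 to 2557 CPM in RA, with 1 of 6 above 0 and 5 below and a median log2 fold change of -0.35, or -0.60 over 6 libraries. The 1 above 0 was Myh2, at 203 to 1816 CPM. Tnnt1 stood at 130, 125 and 38.4 CPM in RA+Dipy replicates 2 to 4, against 161, 67.4 and 247 CPM in RA replicates 1 to 3. Tnnt1, Tnni1 and Myl2 had RA replicates 1 and 3 above the other 4 of the 6 libraries, as most Nduf genes did. Myh7, Myh2 and Myl3 did not, and a relation to the Nduf values was not tested. Macrophage markers summed to 104 to 212 CPM in RA+Dipy and 68.6 to 119 CPM in RA, with 5 of 5 fitted values above 0 over 8 and over 6 libraries (median 0.79 and 0.74). Adipocyte markers summed to 148 to 672 CPM in RA+Dipy and 96.1 to 409 CPM in RA, with 4 of 4 above 0 in both fits (median 1.42 and 1.98). The 672 CPM was of RA+Dipy replicate 4, against 233, 148 and 157 CPM in RA+Dipy replicates 1 to 3. RA+Dipy replicate 4 was also the lowest of the 6 libraries for 42 of 47 Nduf genes. Whether these are related was not tested. Schwann cell markers summed to 110 to 195 CPM in RA+Dipy and 162 to 347 CPM in RA, with 4 of 4 below 0 in both fits (median -0.93 and -0.51). No marker passed an adjusted p of 0.05, and the part of these cells in the Nduf values was not tested. At an edgeR unadjusted p under 0.05 over 8 libraries, 2 of 5 macrophage, 2 of 4 adipocyte and 3 of 4 Schwann cell markers were called. The background was 1.68% of all genes higher and 2.15% lower. Over 6 libraries (background 5.96% and 5.45%) these counts were 3, 3 and 1. Then 2 of 3 endothelium, 1 of 3 fibroblast and 1 of 3 erythroid markers were also called. The groups overlapped in each of these sums, and also in the following: endothelium at 83.5 to 217 CPM in RA+Dipy and 99.2 to 169 CPM in RA, fibroblast at 972 to 1913 CPM in RA+Dipy and 847 to 2192 CPM in RA, and erythroid at 114 to 611 CPM in RA+Dipy and 111 to 874 CPM in RA. Fast muscle markers summed to 133301 to 152582 CPM in RA+Dipy and to 133161 to 210542 CPM in RA. T cell markers stayed at 2.68 CPM or less and B cell markers at 0.507 CPM or less in every library, and 0 B cell markers passed the filter.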

How the data were processed

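The authors deposited raw read counts per protein-coding gene for each library. Per the design text and the submitters' processing notes, fastp 0.20.0 cleaned the single 100 nt reads, STAR 2.7.3a mapped them to GRCm38.p6, and HTSeq counted them per gene regardless of strand. The submitters' own DESeq2 1.44.0 results were not used here. The labels name TruSeq poly(A) libraries and the design text a directional NEBNext kit. Each table held 21859 lines, and 24 repeated symbols were summed. No label marks a batch. Per the group sizes in the design text each library is from a separate mouse, and no pair within a group agreed within sampling noise (smallest chi-square per degree of freedom 29.3).

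The edgeR function filterByExpr (minimum count 10) kept 12755 genes and removed 9078. Libraries were scaled by TMM and groups compared by edgeR 4.0.16 (R 4.3.3; robust quasi-likelihood test), with no term beside the group, and Benjamini-Hochberg adjustment over all genes, two-sided. The method was also tested on simulated data. These had the lower spread of the 6 libraries and no library that stood apart, so they do not show how the test fares on the 8. TPM used GENCODE vM21 exon lengths. The 22 named members are 6 core subunits (1 is not reported here), the 3 accessory subunits and 2 assembly factors of smallest p in each direction, Ndufa4, Ndufa4l2, Ndufab1 and those highest and lowest per length (up to 3 each). Alternatives were other scalings and filters, a replicate block, DESeq2 1.42.0, limma 3.58.1 (voom, with and without library weights) and leaving out libraries. Members and lists were chosen with earlier results of these data known. Lengths of coding transcripts, deviations among 6 libraries and deviations centred within the complex were added after seeing the data.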

Additional observations from a re-analysis of the deposited data

Results flagged for a closer look

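In 5 of 54 groups of 4 libraries, over the named Nduf genes and the summed levels, 1 library lay apart on the log2 scale. Its distance from its nearest neighbour, as a share of the group's range in log2 CPM, exceeded Dixon's 95% critical value. Shares taken on the CPM values printed here would differ, and so would the groups set apart. Chance alone sets apart about 1 in 20 groups by this measure. Ndufs1 had 73.6 CPM in RA replicate 4, far below the other 3 RA libraries. Ndufaf7 had 7.43 CPM in the same library, also the low one of its group. Ndufc2 had 578 CPM and Ndufa2 had 1554 CPM in RA+Dipy replicate 1, each far above the other 3 RA+Dipy libraries. Ndufaf3 had 13.2 CPM in RA replicate 2, below 3 close RA values. Hence 2 of the 5 came from RA+Dipy replicate 1 and 2 from RA replicate 4, and why these libraries stand apart was not tested.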

How the results depend on the processing

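Under every setting tried, 0 Nduf genes and 0 of the other complex I genes passed the adjusted threshold, also with each library left out (0 to 0). Leaving out 1 library at a time moved the median log2 fold change of core subunits between -0.36 and 0.15, of accessory subunits between -0.64 and 0.26 and of assembly factors between -0.16 and 0.39, and the log2 ratio of summed CPM between -0.75 and 0.21. The lowest came without RA+Dipy replicate 1. With limma-voom library weights (RA+Dipy replicate 1 at 0.174, RA replicate 4 at 0.110) the median was -0.42 for core subunits and -0.29 for assembly factors, and 26 members were lower at an unadjusted p under 0.05 (14.5% of all genes). Without both libraries the assembly factors stood at -0.24.

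Signs of 13 named genes turned with weights: Ndufv1 -0.25, Ndufv2 -0.43, Ndufs8 -0.42, Ndufc2 -0.35, Ndufb6 -0.24, Ndufs4 -0.34, Ndufaf7 -0.025, Ndufaf4 -0.14, Ndufa4 -0.38, Ndufa4l2 -0.45, Ndufab1 -0.46, Ndufaf2 -0.31 and Ndufb2 -0.45. The same 13 turned without both libraries, to -0.22, -0.37, -0.32, -0.32, -0.23, -0.30, -0.019, -0.12, -0.34, -0.37, -0.36, -0.31 and -0.37 in that order. With the replicate block Ndufv2 and Ndufs8 were at -0.062, Ndufa4l2 at -0.046, Ndufab1 at -0.076 and Ndufb2 at -0.0026. The numbers did not pair the libraries (correlations of deviations -0.20, 0.11, 0.15 and -0.27), and 0 Nduf genes were called with the block. Plain limma-voom put Ndufv2 at -0.047, Ndufs8 at -0.051, Ndufa4l2 at -0.060 and Ndufab1 at -0.069. Scaling to summed Nduf counts put Ndufs3 at 0.058 and Ndufaf3 at 0.15. It makes the summed Nduf level equal in every library by construction, so the summed ratio was not computed with it. Ndufs8 was at -0.0021 with DESeq2 size factors, -0.0022 with DESeq2 and -0.014 unfiltered, where Ndufa4l2 was at -0.013. Upper-quartile factors and a mean of at least 1 CPM turned no sign.

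Leaving out 1 library at a time turned the sign of 14 named genes, over the ranges Ndufv1 -0.069 to 0.22, Ndufv2 -0.61 to 0.46, Ndufs3 -0.32 to 0.020, Ndufs8 -0.36 to 0.15, Ndufc2 -0.17 to 0.90, Ndufb6 -0.034 to 0.73, Ndufs4 -0.35 to 0.81, Ndufa3 -1.78 to 0.24, Ndufa4 -0.23 to 0.83, Ndufa4l2 -0.34 to 0.17, Ndufab1 -0.61 to 0.39, Ndufa2 -2.25 to 1.06, Ndufaf2 -0.23 to 0.53 and Ndufb2 -0.64 to 0.67. The cause of these changes was not tested. All 47 members passed the low-count filter, and the spread of a typical gene between libraries of a group (edgeR's common dispersion, as a coefficient of variation) was 0.386 over 8 libraries and 0.183 without RA+Dipy replicate 1 and RA replicate 4.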
